A study of Mus musculus with 24 samples.

Results

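Ptbp1, Ptbp2 and Ptbp3 encode the polypyrimidine tract binding proteins, and all 3 genes were found by symbol or Ensembl identifier in each of the 24 libraries of the series. They are 3 of 23871 genes in the PAPERCLIP tables and 3 of 47069 identifiers in the RNA-seq tables. PAPERCLIP crosslinks messenger RNA to poly(A)-binding protein and sequences the bound 3′ ends; in the cTag form a tagged binding protein (Ctag-PABP) is switched on by Cre, so that RNA of the Cre-expressing cells is pulled down with anti-GFP antibodies from whole tissue. Gene levels are given as CPM, a gene's count as it would be in a library of 1000000 counts.

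Tagged libraries came from Cx3cr1-Cre; Ctag-PABP mouse brain, where Cre acts in microglia and other mononuclear phagocytes, given LPS (n = 3), PBS (n = 3) or nothing (n = 2). The other tagged libraries came from cortex of Gfap-Cre (astrocytes), Camk2a-Cre (excitatory neurons) and Gad2-Cre (inhibitory neurons) mice carrying Ctag-PABP, with 2 libraries each and no treatment. One further PAPERCLIP library was made from CL57/B6J liver without a Cre driver. RNA-seq was made from microglia isolated with CD11b beads, 2 brains per tube, from adult wild-type C57BL/6 mice injected daily for 4 days with 1 mg/kg lipopolysaccharide (LPS, a bacterial cell wall component that activates microglia; n = 3) or with phosphate-buffered saline (PBS; n = 3). It was also made from cortex of E18.5 Ptbp2-KO embryos (n = 3). All tagged groups carry the Ctag-PABP allele. The labels give the LPS dose for the RNA-seq mice and not for the tagged mice, and they give no age for the tagged mice. The microglial PAPERCLIP libraries are from brain and the other tagged libraries from cortex; between them the effect of cell type and that of tissue cannot be told apart.

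The proteins bind pyrimidine-rich stretches of pre-mRNA and change splicing and the choice of 3′ end. Ptbp1 is made by most cells outside the nervous system and by neural progenitors, where it keeps many neuronal exons out and causes skipping of a Ptbp2 exon, which sends Ptbp2 transcripts to decay. Neurons lose Ptbp1 and gain Ptbp2, and Ptbp3, also called Rod1, is best known from blood-forming cells.

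In the GRCm38.p6 gene table of RefSeq, the assembly that mm10 names, Ptbp1 lies at chr10:79854432-79864435 on the plus strand, Ptbp2 at chr3:119718741-119784647 on the minus strand and Ptbp3 at chr4:59471868-59549378. The 250 bases before the start are shown for Ptbp1 (chr10:79854182-79854431, plus strand) and Ptbp2 (chr3:119783389-119783638, minus strand), since the levels of these 2 genes lie in opposite order between microglial and cortical libraries. The Ptbp2 window lies within the span that the gene table gives for Ptbp2. Capitals mark CACGTG (an E-box) and GGGCGG (a GC box), each searched on both strands with overlapping hits counted.
Ptbp1: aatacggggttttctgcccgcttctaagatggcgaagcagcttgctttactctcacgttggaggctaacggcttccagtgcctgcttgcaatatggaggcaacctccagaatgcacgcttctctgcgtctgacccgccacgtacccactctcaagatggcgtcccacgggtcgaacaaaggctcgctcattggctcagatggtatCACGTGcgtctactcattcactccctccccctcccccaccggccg
Ptbp2: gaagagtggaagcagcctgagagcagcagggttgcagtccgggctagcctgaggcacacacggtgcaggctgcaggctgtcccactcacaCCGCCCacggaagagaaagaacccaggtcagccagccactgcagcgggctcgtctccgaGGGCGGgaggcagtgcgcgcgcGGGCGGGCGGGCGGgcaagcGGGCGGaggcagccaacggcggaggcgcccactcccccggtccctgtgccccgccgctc
The Ptbp1 window held 1 E-box, which 6.02% of 32841 windows of this length held, and had 57.6% G and C bases. The Ptbp2 window held 6 GC boxes. At least 1 was found in 32.7% of those windows, and the share with as many as 6 was not counted. The Ptbp2 window had 72.4% G and C bases against a median of 52.4%. It also had 23 CpG dinucleotides, the Ptbp1 window 17 and the median window 6.

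PAPERCLIP libraries ranged from 115734 counts in liver to 2005627 counts in a Camk2a library, and the untreated Cx3cr1 libraries held 133456 and 154959 counts. Microglial RNA-seq libraries held 1250170 to 2133407 counts and Ptbp2-KO libraries 19446610 to 27415288. Of the counts of Cx3cr1 libraries 2.63 to 3.98% fell on the 8 microglial markers, against 0.00374 to 0.0108% of those of cortical libraries. The 7 astrocyte markers took 2.41 to 2.82% in Gfap libraries, and the 7 pan-neuronal markers 1.01 to 1.22% in Camk2a and Gad2 libraries. Oligodendrocyte markers took 0.109% in Gfap replicate 1 and 0.835% in Gfap replicate 2. PBS replicate 3 of the tagged microglia stood apart from the other PBS libraries with 0.287% pan-neuronal and 0.186% hepatocyte marker counts, against 0.0477 to 0.0565% and 0.00109 to 0.00113%. Only the knockout libraries are called biological replicates in the labels; elsewhere the p-values rest on differences among libraries that may be technical. In bulk libraries, fewer cells of a type and less RNA per cell cannot be told apart.

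Ptbp1 was counted in all 8 Cx3cr1 libraries and was nearly absent from the neuronal ones. LPS-treated Cx3cr1 libraries held 56, 15 and 28 Ptbp1 counts (53.8, 22.1 and 33.0 CPM), PBS libraries 6, 7 and 7 (21.7, 26.3 and 20.7 CPM) and untreated libraries 3 and 1 (19.4 and 7.49 CPM). The Gfap libraries held 3 and 9 counts (3.75 and 5.14 CPM), the Camk2a libraries 0 and 1 (0 and 0.546 CPM) and the Gad2 libraries 0 and 0. By these values every Cx3cr1 library lay above every cortical library, and both Gfap libraries above the 4 neuronal ones, but the order is not settled for the thinnest libraries. A count of 0 allows up to 4.76 CPM in Gad2 replicate 1, 3.16 CPM in Gad2 replicate 2 and 1.496 CPM in Camk2a replicate 1 (3 counts per library), and the first of these limits lies above Gfap replicate 1. Untreated Cx3cr1 replicate 2 rests on 1 count, with an exact Poisson 95% interval of 0.190 to 41.7 CPM. Pooled over libraries, Ptbp1 reached 4.70 CPM in Gfap cortex (exact Poisson 95% interval 2.43 to 8.22, counting error only) and 0.185 CPM in neurons (0.00467 to 1.03).

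Ptbp2, which neurons gain as they lose Ptbp1, was highest in the Gfap libraries. It reached 83.7 and 119 CPM there (67 and 208 counts), 67.3 and 65.5 CPM in Camk2a libraries (135 and 120 counts) and 41.2 and 51.6 CPM in Gad2 libraries (26 and 49 counts). The Cx3cr1 libraries were lower, with 11.5, 14.7 and 18.9 CPM after LPS (12, 10 and 16 counts), 7.25, 15.02 and 29.6 CPM after PBS (2, 4 and 10 counts) and 19.4 and 22.5 CPM untreated (3 counts each). No Cx3cr1 library reached the lowest cortical value. The PBS values overlapped those of both other Cx3cr1 groups, while both untreated values lay just above the LPS values, on 3 counts each. PBS replicate 3 had the highest Ptbp2 of the 8 Cx3cr1 libraries, and it is also the one with the most pan-neuronal counts; the part of those counts in its Ptbp2 value was not tested.

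Ptbp3 had the opposite order between microglial and cortical libraries. LPS-treated Cx3cr1 libraries held 219, 261 and 240.5 CPM (228, 177 and 204 counts), PBS libraries 185, 169 and 172 CPM (51, 45 and 58 counts) and untreated libraries 213 and 329.7 CPM (33 and 44 counts). The Camk2a libraries held 21.9 and 21.3 CPM (44 and 39 counts), the Gfap libraries 13.7 CPM each (11 and 24 counts) and the Gad2 libraries 3.17 and 6.31 CPM (2 and 6 counts). The lowest Cx3cr1 library lay far above the highest cortical one. Within cortex the groups did not overlap, which is a description only, since the share of all genes without overlap is not given here. Exact Poisson intervals were 0.384 to 11.5 and 2.32 to 13.7 CPM in Gad2 libraries. They overlapped those of Gfap libraries, 6.86 to 24.6 and 8.79 to 20.4 CPM. Those of Camk2a libraries, 15.9 to 29.5 and 15.1 to 29.1 CPM, also overlapped the Gfap intervals. By mean level the order was untreated Cx3cr1, LPS, PBS, Camk2a, Gfap and Gad2, and the untreated and LPS groups overlapped.

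**Figure D1:**
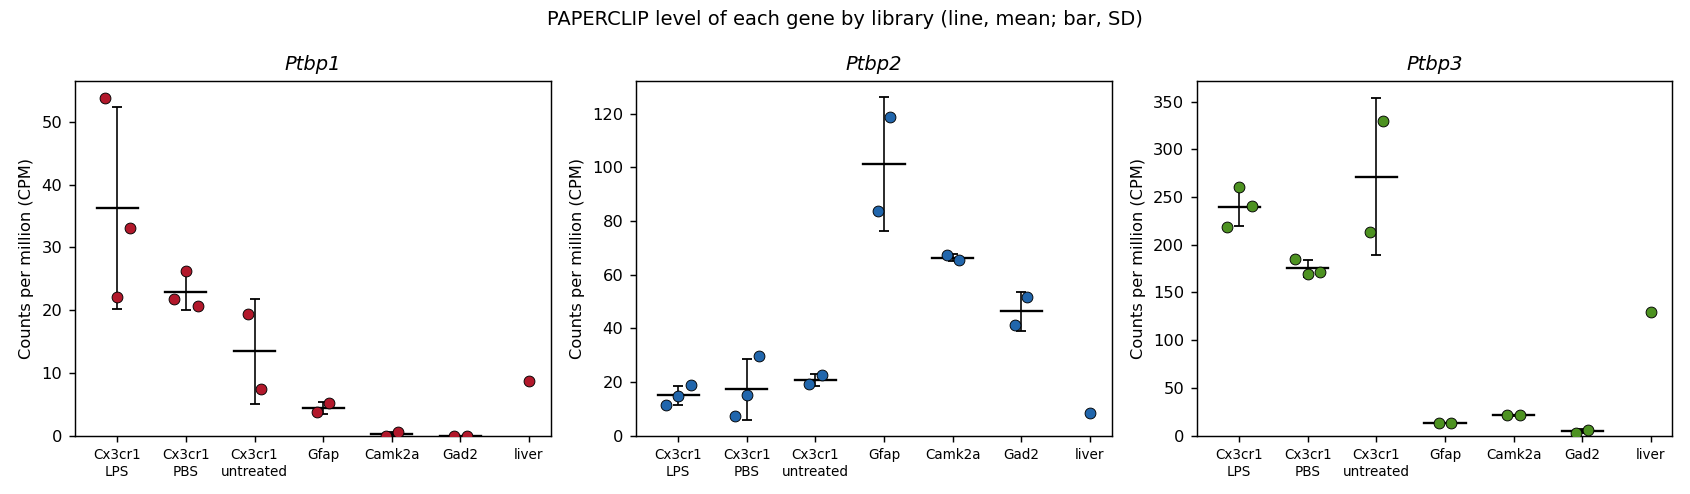
PAPERCLIP level (CPM, linear axis from 0) of Ptbp1, Ptbp2 and Ptbp3 in each library, 1 point per library, with the group mean (line) and SD (bar); liver is 1 library. Ptbp1 and Ptbp3 lie highest in the Cx3cr1 groups and Ptbp2 in the cortical groups, led by Gfap at 83.7 and 119 CPM.

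Microglia were set against the cortical cell types in one edgeR quasi-likelihood fit of the 8 untreated tagged libraries, with Benjamini-Hochberg adjustment over 9421 genes. Ptbp1 failed the low-count filter in this fit, so 2 of the 3 genes were tested. Ptbp3 was higher in untreated Cx3cr1 libraries, at 271 ± 82.5 CPM (SD, n = 2) against 13.4 ± 7.62 CPM in cortical libraries (n = 6), a ratio of means of 20.3. The log2 change was 4.61 (SE 0.29, adjusted p = 2.06e-10). Ptbp2 was lower, at 20.9 ± 2.21 CPM in untreated Cx3cr1 libraries and 71.3 ± 27.4 CPM in cortical libraries, with a log2 change of -1.64 (SE 0.49, adjusted p = 0.00957). Both tested genes passed, where 49.8% of all genes did. The Ptbp2 call rests on 6 Cx3cr1 counts and did not hold after all libraries were thinned to the shallowest (log2 change -1.34, adjusted p = 0.0599). Pan-neuronal markers took 0.0450 to 0.0452% of the untreated Cx3cr1 counts, with 5 or 6 of 7 markers counted, against 1.01 to 1.22% in neurons; their part in the Cx3cr1 Ptbp2 level was not tested. The 5 markers of monocytes and border macrophages took 0.0671% of counts in untreated Cx3cr1 replicate 1 and 0.170% in replicate 2, each with Ly6c2 at 0, and at most 1 count fell on them in a cortical library. Replicate 2 was also the library with the higher Ptbp3, and the part of these cells in the Ptbp3 level was not tested.

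Against Gfap alone, the untreated Cx3cr1 libraries again differed in both tested genes, where 44.6% of all genes passed. Ptbp3 was 19.8-fold higher by means, 271 CPM in untreated Cx3cr1 against 13.7 CPM in Gfap, with a log2 change of 4.21 (SE 0.34, edgeR adjusted p = 9.84e-09). Ptbp2 was at 20.9 CPM in untreated Cx3cr1 and 101 ± 24.9 CPM in Gfap, with a log2 change of -2.37 (SE 0.48, edgeR adjusted p = 0.000489). This comparison shares its Cx3cr1 and Gfap libraries with the one before.

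Gfap libraries were set against the mean of Camk2a and Gad2, to compare astrocytes with neurons. Of the 2 genes tested, Ptbp2 passed, where 60.5% of all genes did. It was higher in Gfap libraries, at 101 ± 24.9 CPM (SD, n = 2) against 56.4 ± 12.3 CPM in neurons (n = 4), with a log2 change of 1.11 (SE 0.20, edgeR adjusted p = 9.9e-05). Ptbp3 was at 13.7 ± 0.0133 CPM in Gfap libraries and 13.2 ± 9.82 CPM in neurons, with a log2 change of 0.60 (SE 0.38, edgeR adjusted p = 0.18). The Ptbp2 call did not hold after thinning (log2 change 0.61, adjusted p = 0.27). The Gfap replicate with more oligodendrocyte marker counts, replicate 2, also had the higher Ptbp2; without it the log2 change was 0.88 (edgeR adjusted p = 0.016). The 5 vascular markers took 0.0140 and 0.0215% of Gfap counts, also more in replicate 2 and with Pecam1 at 0 in both, against 0.000299 to 0.000631% in neurons. The part of either list in the Ptbp2 change was not tested.

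Excitatory and inhibitory neurons differed in Ptbp3. It was 4.56-fold higher in Camk2a libraries, at 21.6 ± 0.469 CPM against 4.74 ± 2.22 CPM in Gad2 libraries (SD, n = 2 each), with a log2 change of 2.07 (SE 0.47, edgeR adjusted p = 0.00335). Ptbp2 was at 66.4 ± 1.31 CPM in Camk2a libraries and 46.4 ± 7.29 CPM in Gad2 libraries, and although the libraries did not overlap, its log2 change of 0.49 did not pass (SE 0.26, edgeR adjusted p = 0.205). So 1 of 2 tested genes passed, where 21.2% of all genes did (2001 genes, and 1026 to 1209 with any one of the 4 neuronal libraries left out). The Ptbp3 result rests on 8 Gad2 counts. It did not pass after thinning (log2 change 2.62, adjusted p = 0.177) or without Gad2 replicate 1 (1.76, adjusted p = 0.0513).

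The make-up of the family was compared through the share of Ptbp1, Ptbp2 and Ptbp3 counts within a library, which does not depend on library size. Counts are not scaled by transcript length, so shares are compared between libraries and not between genes. Ptbp3 took 77.0 to 91.7% of the family counts in the 8 Cx3cr1 libraries, against 7.14 to 24.6% across the 6 from cortex. Ptbp2 took 3.39 to 13.3% in Cx3cr1 libraries and 75 to 92.9% in cortical ones. Ptbp1 took 2.08 to 18.9% in Cx3cr1 libraries and 0 to 3.73% in cortical ones. Within cortex, Ptbp3 took 24.4 and 24.6% in Camk2a libraries, 9.96 and 13.6% in Gfap libraries and 7.14 and 10.9% in Gad2 libraries.

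**Figure D2:**
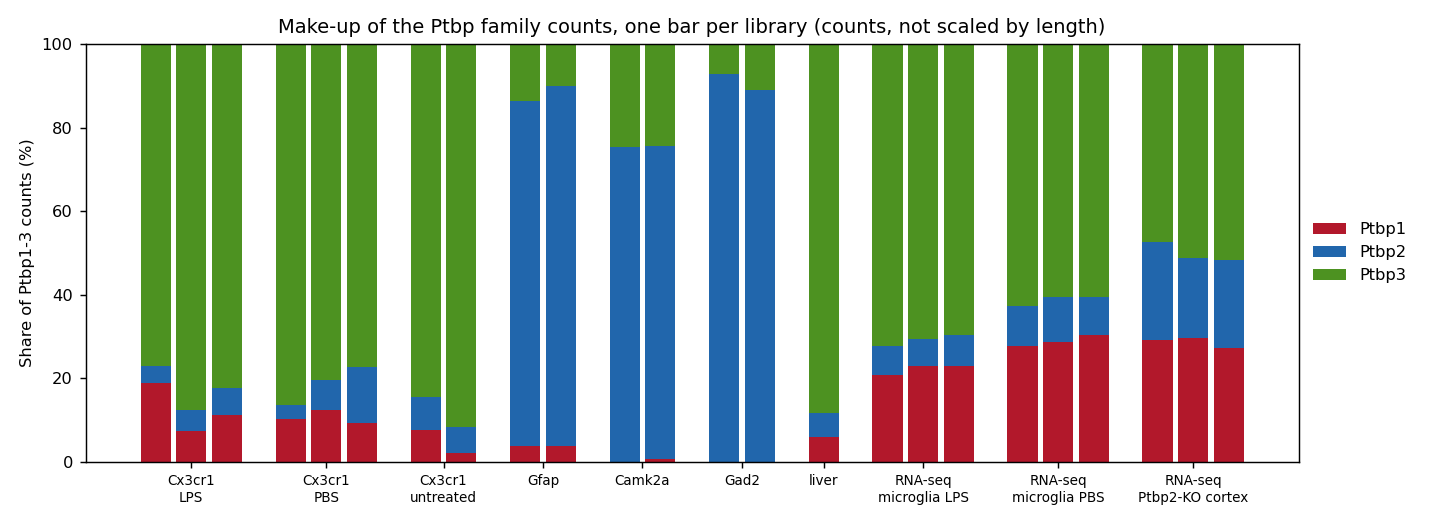
Share (%) of the summed Ptbp1, Ptbp2 and Ptbp3 counts that each gene took, 1 stacked bar per library, for PAPERCLIP groups and, to the right, RNA-seq groups. Ptbp3 fills 77.0 to 91.7% of the bars in Cx3cr1 libraries, and Ptbp2 fills 75 to 92.9% in cortical libraries.

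Within-library log2 ratios of the same counts, with 0.5 added to each count, gave the same picture. The log2 ratio of Ptbp2 to Ptbp3 was -3.63 ± 0.61 in Cx3cr1 libraries (SD, n = 8) and 2.53 ± 0.77 in cortical libraries (n = 6), a difference of -6.16. The log2 ratio of Ptbp2 to Ptbp1 was -0.49 ± 1.06 in Cx3cr1 libraries and 5.92 ± 1.43 in cortical libraries, a difference of -6.41. Ptbp1 had 0 counts in 3 cortical libraries and 1 in another, so the size of this difference depends on the added count. With Ptbp1 put at no less than 3 counts in each cortical library the cortical mean was 4.31 and the difference -4.80 (exact permutation p = 0.000333), a choice made after these values were seen. As given, both had p = 0.000333 in a two-sided exact permutation test, the smallest that 3003 splits can give, and an adjusted p of 0.0015 over 9 ratio tests. The log2 ratio of Ptbp3 to Ptbp1 was 3.13 ± 0.84 in Cx3cr1 libraries and 3.38 ± 1.97 in cortical libraries, and the difference of -0.25 did not pass (exact permutation p = 0.76). Its sign turned to 1.36 with the same floor for Ptbp1 (exact permutation p = 0.0576), to 0.17 with 1 added to each count, to 0.69 with the untreated Cx3cr1 libraries alone, and to 0.37 or 0.02 without Camk2a replicate 1 or 2. The Cx3cr1 side pools 3 treatments of 1 Cre line, and the cortical side pools 3 Cre lines. The test takes all libraries of a side as exchangeable, which they are not, so its p-values describe these libraries only. In each of the 3 Cx3cr1 groups every library had a lower log2 ratio of Ptbp2 to Ptbp3 than any cortical library.

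The liver library, with no replicate, held 1 Ptbp1, 1 Ptbp2 and 15 Ptbp3 counts. Ptbp3 stood at 129.6 CPM there (exact Poisson 95% interval 72.5 to 214) and took 88.2% of the family counts (exact Clopper-Pearson 95% interval 63.6 to 98.5). Ptbp1 and Ptbp2 were each at 8.64 CPM, with intervals of 0.219 to 48.1 CPM. These reach from near 0 to above every Cx3cr1 value of Ptbp2. The 5 hepatocyte markers took 7.32% of its counts.

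Injection itself was examined by setting PBS against untreated Cx3cr1 libraries, in a fit that also held the LPS libraries. Ptbp2 failed the low-count filter. Ptbp3 was at 175 ± 8.49 CPM in PBS (SD, n = 3) and 271 ± 82.5 CPM in untreated libraries (n = 2), with a log2 change of -0.68 (SE 0.27, edgeR adjusted p = 0.197). Ptbp1 was at 22.9 ± 2.96 CPM in PBS and 13.4 ± 8.39 CPM in untreated libraries, with a log2 change of 0.64 (SE 0.81, edgeR adjusted p = 0.693). None of the 2 tested genes passed with edgeR, where 2.01% of all genes did; 1 had an unadjusted p under 0.05, and DESeq2 called 0 of the 1 to which it gave an adjusted p.

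LPS was set against PBS in tagged microglia, to see how the activated cells differ. Ptbp3 was at 240.0 ± 20.8 CPM after LPS and 175 ± 8.49 CPM after PBS (SD, n = 3 each). Its log2 change of 0.44 did not pass (SE 0.19, edgeR adjusted p = 0.289). Its libraries did not overlap, which is a description only, since the share of all genes without overlap is not given here. Ptbp1 was at 36.3 ± 16.1 CPM after LPS and 22.9 ± 2.96 CPM after PBS, with overlapping libraries and a log2 change of 0.68 (SE 0.41, edgeR adjusted p = 0.451). Ptbp2 was at 15.04 ± 3.68 CPM after LPS and 17.3 ± 11.4 CPM after PBS and failed the count filter. None of the 2 tested genes passed, where 3.53% of all genes did; 1 had an unadjusted p under 0.05, and DESeq2 called 0 of 2. Replicate numbers were taken to pair these libraries, and the main fit has no term for them. The fit with the replicate block changed neither call (Ptbp1 0.63, edgeR adjusted p = 0.393, and Ptbp3 0.43, edgeR adjusted p = 0.176). Over all genes it called 423, against 201 in the main fit.

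In isolated microglia by RNA-seq, at greater counts per gene, the members moved in different directions after LPS. Ptbp1 fell to 141.5, 163 and 151 CPM after LPS, against 187, 195 and 220.4 CPM after PBS. Ptbp2 fell to 47.6, 46.4 and 48.8 CPM after LPS, against 62.9, 73.4 and 66.2 CPM after PBS. Ptbp3 rose to 491, 501 and 459.9 CPM after LPS, against 421, 411 and 442 CPM after PBS. For each of the 3 genes the LPS and PBS libraries did not overlap. The share of all genes without overlap is not given here, so this is a description only.

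The ratio of mean CPM, LPS over PBS, was 0.757 for Ptbp1, 0.705 for Ptbp2 and 1.14 for Ptbp3. The log2 changes were -0.29 for Ptbp1 (SE 0.09, edgeR adjusted p = 0.0361), -0.39 for Ptbp2 (SE 0.12, adjusted p = 0.0342) and 0.30 for Ptbp3 (SE 0.08, adjusted p = 0.0193). All 3 passed, where 26.4% of 10267 genes did, 1634 higher and 1072 lower after LPS; with library totals in place of TMM scaling the split was 1282 higher and 1641 lower. These are small changes whose calls depend on the processing. DESeq2 called Ptbp3 but neither Ptbp1 (adjusted p = 0.15) nor Ptbp2 (adjusted p = 0.232), and scaling by totals alone left Ptbp3 at 0.19 (edgeR adjusted p = 0.126). The Ptbp1 call was lost without any of 5 of the 6 libraries (adjusted p 0.0559 to 0.169), the Ptbp2 call without any of 5 (0.0557 to 0.123) and the Ptbp3 call without any of 4 (0.0513 to 0.0959), with signs kept throughout.

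**Figure D3:**
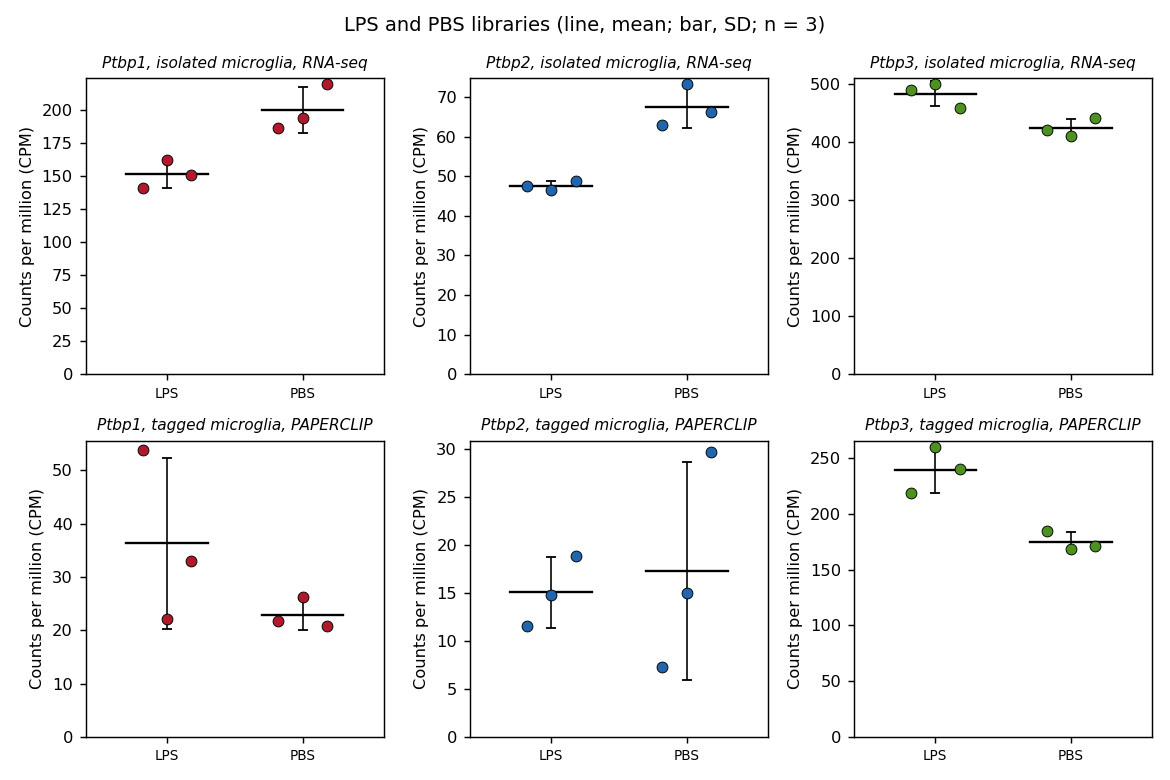
CPM (linear axes from 0) of the 3 genes in LPS (left) and PBS (right) libraries, for isolated microglia by RNA-seq (top) and tagged microglia by PAPERCLIP (bottom), with points for libraries, a line for the mean and a bar for the SD. In RNA-seq the LPS points lie below PBS for Ptbp1 and Ptbp2 and above for Ptbp3. In PAPERCLIP the Ptbp3 points lie higher after LPS, a change that did not pass (edgeR adjusted p = 0.289), and those of Ptbp1 and Ptbp2 overlap. The share of all genes without overlap is not given here, so these positions are a description only.

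The shares moved with the levels. Ptbp3 took 69.7 to 72.2% of the family counts after LPS and 60.6 to 62.8% after PBS, while Ptbp1 took 20.8 to 22.9% after LPS and 27.8 to 30.3% after PBS. The log2 ratio of Ptbp3 to Ptbp1 was 1.67 ± 0.10 after LPS and 1.09 ± 0.09 after PBS, a difference of 0.59. That of Ptbp2 to Ptbp3 was -3.34 ± 0.10 after LPS and -2.65 ± 0.15 after PBS, a difference of -0.69. Both had an exact permutation p of 0.1, the smallest that 3 libraries against 3 can give, and 0.225 after adjustment over the 9 ratio tests. That of Ptbp2 to Ptbp1 differed by -0.10 (exact permutation p = 0.5). In tagged microglia none of the 3 ratios differed at the precision of 3 against 3 libraries (exact permutation p of 0.5, 0.8 and 0.4). The permutation test does not use the pairing of the tagged libraries by replicate number, so paired differences of the ratios were not tested.

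Marker lists were also read in the same RNA-seq libraries. The 8 microglial markers took 2.60 to 3.11% of counts after LPS and 3.70 to 3.72% after PBS. All 8 were counted in each library, and the LPS and PBS ranges did not overlap. The 8 genes of the embryonic progenitor list include the cell cycle genes Mki67 and Top2a. They took 0.0502 to 0.0937% of counts after LPS, with 5 or 6 counted, and 0.0157 to 0.0219% after PBS, with 7 counted. Hes5 was at 0 in all 6 libraries, Pax6 was at 0 in every LPS library and Sox2 in LPS replicate 1. The rise of the list is thus not one of all its genes. The 5 vascular markers took 0.0179 to 0.0366% after LPS and 0.0345 to 0.0780% after PBS, with all 5 counted in each library. The 7 pan-neuronal markers took 0.000522 to 0.00104% after LPS and 0.000941 to 0.00126% after PBS, with Nefl or Syt1 among those at 0 in each library. The vascular and the pan-neuronal ranges each overlapped between LPS and PBS. The 5 hepatocyte markers took 0.144 to 0.185% after LPS and 0.768, 0.715 and 0.175% after PBS, so that PBS replicates 1 and 2 stood apart. Nearly all of it was Ttr, the transthyretin gene, which the choroid plexus also expresses, with at most 2 counts of Alb and none of Apoa1, Fgb or Serpina1a in any of the 6. The part of these in the Ptbp changes was not tested.

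The LPS responses of both assays were set against each other as an interaction over 10165 genes. The RNA-seq response minus the PAPERCLIP response was -1.07 on the log2 scale for Ptbp1 (SE 0.38, edgeR adjusted p = 0.382, unadjusted p = 0.0112), -0.16 for Ptbp2 (SE 0.45, adjusted p = 0.985) and -0.21 for Ptbp3 (SE 0.19, adjusted p = 0.833). None of the 3 passed, where 0.00984% of all genes did, 1 gene; DESeq2 called 0 of the 2 with an adjusted p. The opposite signs of Ptbp1 in the assays are thus not shown to differ.

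**Figure D4:**
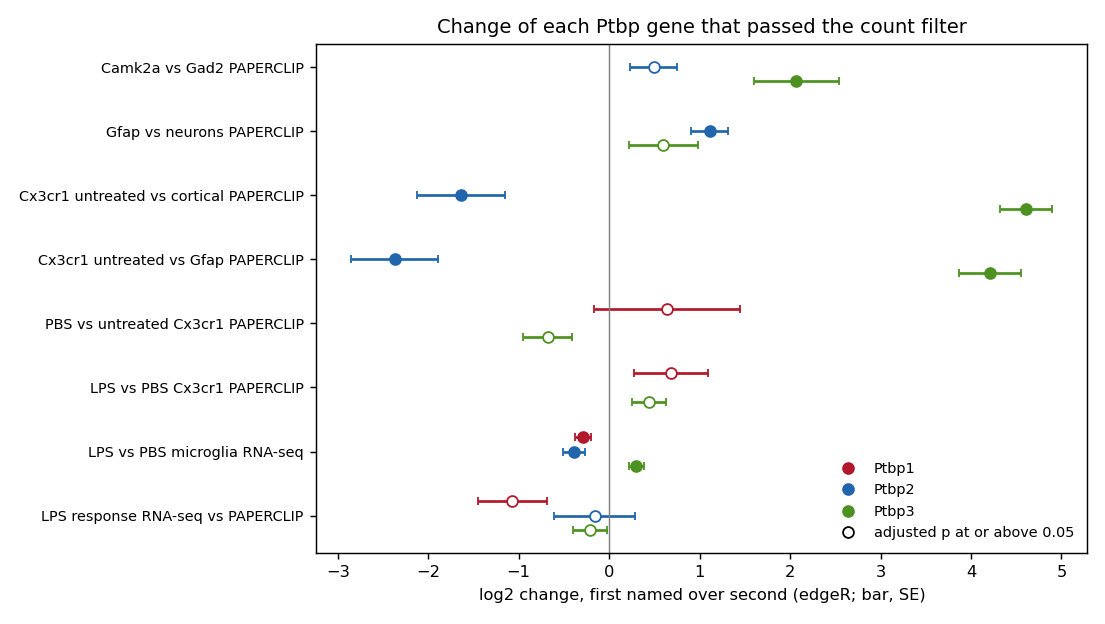
Log2 change of each Ptbp gene that passed the count filter (horizontal axis, first-named group over the second; point, edgeR estimate; bar, SE), by comparison; filled points have an adjusted p under 0.05. Ptbp3 at 4.61 and 4.21 and Ptbp2 at -1.64 and -2.37 in untreated Cx3cr1 libraries lie farthest apart, and the RNA-seq LPS changes are the smallest of the filled points.

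The Ptbp2-KO cortex shows what the table counts for a disrupted member. Ptbp2 was counted 997, 781 and 511 times, or 36.7, 28.5 and 26.3 CPM (mean 30.5 ± 5.51, SD, n = 3). The labels do not say which part of the gene is missing, so reads from the rest can still be counted and these values do not check the label. Ptbp1 stood at 45.7, 43.6 and 34.2 CPM (41.1 ± 6.11) and Ptbp3 at 74.2, 75.5 and 65.0 CPM (71.6 ± 5.70). Replicate 3 was the lowest for all 3 genes. Ptbp3 took 47.4 to 51.8% of the family counts, Ptbp1 27.2 to 29.5% and Ptbp2 19.3 to 23.5%. Progenitor markers took 0.0564 to 0.0647% and pan-neuronal markers 0.232 to 0.239% of these counts. In other lists replicate 3 stood apart from replicates 1 and 2. Inhibitory neuron markers took 0.0198% there, against 0.0330 and 0.0317%. Excitatory neuron markers took 0.0880%, against 0.0693 and 0.0688%, and astrocyte markers 0.0533%, against 0.0681 and 0.0736%. The part of these differences in the Ptbp levels was not tested. No wild-type embryonic cortex was analysed here and the libraries were depleted of ribosomal RNA rather than selected for poly(A), so no comparison with the microglia was made.

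Ptbp1 counts carry a limit of their own. In the gene table its span overlaps Plppr3, a protein-coding gene on the minus strand listed as Lppr3 in the PAPERCLIP tables, by 3961 bases, and the non-coding E130317F20Rik by 540 bases. Whether strand was used in counting is not given in the sources used here, so shared reads may not be told apart. Plppr3 was at 171 to 201 CPM in Ptbp2-KO cortex, 4.00 to 4.56 CPM in LPS and 2.97 to 6.28 CPM in PBS microglia by RNA-seq. By PAPERCLIP, Lppr3 was at 0 to 6.45 CPM in Cx3cr1 libraries and 2.29 to 42.1 CPM in cortical ones. The spans of Ptbp2 and Ptbp3 overlap no other gene in the table.

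Proteins that work with or resemble PTB were read from a list of 19 genes, among them Raver1 and Raver2, which bind PTB and act as co-repressors of splicing, Matr3, another PTB-binding nuclear protein, and the hnRNP family. All 19 were measured and 17 tested in untreated libraries. Between untreated Cx3cr1 and cortical libraries 6 were higher and 1 lower, 41.2% against the 49.8% of all genes that passed, with a median log2 change of 0.09 against -0.48. Without untreated replicate 1, 11 passed. Of the 6, Hnrnpk and Hnrnph1 came past the low-count filter (11.4 CPM in 2 libraries) through the untreated Cx3cr1 libraries alone. Their levels are therefore given without a test, although both are still counted in the 41.2% and in the median. Hnrnpk was at 32.3 and 209.8 CPM in untreated Cx3cr1 and 2.10 to 6.86 CPM in cortical libraries. Hnrnph1 was at 25.8 and 74.9 CPM in untreated Cx3cr1 and 2.50 to 8.42 CPM in cortical libraries. PBS and LPS Cx3cr1 libraries held 3.62 to 11.8 CPM of Hnrnph1, within or near the cortical range. Hnrnpll, a splicing regulator of lymphocytes related to hnRNP L, fell by 1.32 (edgeR adjusted p = 0.0076), and did not pass with untreated replicate 2 left out (adjusted p = 0.0638).

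Against Gfap, 6 of the 17 were higher and 3 lower in untreated Cx3cr1 libraries, 52.9% against 44.6% of all genes, with a median of -0.05 against -0.53. Without untreated replicate 2, 4 passed. Hnrnpk and Hnrnph1 are again among the 6, past the filter through the untreated Cx3cr1 libraries alone. Their 2 calls are counted in the 52.9%, so that share is not read as a result. Matr3 was also higher (1.88, edgeR adjusted p = 5.24e-05). Raver2 had no count in untreated Cx3cr1 libraries and 134 in Gfap libraries, at least 4.59-fold lower with the floor of 3 counts over the group, and Hnrnpll fell by 1.18 (edgeR adjusted p = 0.0256; 0.13 without untreated replicate 2).

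Raver2 was the list's most marked gene within cortex. It reached 35.0 and 60.6 CPM in Gfap libraries, 12.5 to 16.95 CPM in Camk2a libraries and 1.59 to 2.10 CPM in Gad2 libraries. The log2 change was 3.40 for Gfap over neurons (SE 0.37, edgeR adjusted p = 2.77e-07) and 2.88 for Camk2a over Gad2 (SE 0.69, edgeR adjusted p = 0.0052), and this second call was lost without either Gad2 library (adjusted p up to 0.0965). Between Gfap and neurons 3 of the 17 were higher and 2 lower, 29.4% against 60.5% of all genes (median 0.10 against 0). That count of 5 was 2 or 3 without either Gfap library, either Camk2a library or Gad2 replicate 2. Hnrnpc was at 0.50 (edgeR adjusted p = 0.0356), Matr3 at -1.45 (adjusted p = 2.97e-05) and Pcbp1 at -0.79 (adjusted p = 0.0172). With one library left out, Hnrnpc ranged from 0.32 to 0.67 and Pcbp1 from -0.85 to -0.76. Hnrnpc and Pcbp1 each lost the call in several of these fits and after thinning. The Hnrnpc call was also lost with scaling by totals, with no filter and in a fit of all 14 tagged libraries. Raver2 was the single gene of the 17 that passed between Camk2a and Gad2, 5.88% against 21.2% of all genes (median 0.04 against 0.03).

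In RNA-seq after LPS, 2 of 18 tested genes of this list rose and 2 fell, 22.2% against 26.4% of all genes, with a median of -0.01 against -0.02. Without PBS replicate 1, PBS replicate 2 or LPS replicate 2, 2 passed. The poly(C)-binding Pcbp2 rose by 0.82 (SE 0.09, edgeR adjusted p = 3.93e-05), at 198 to 219 CPM after LPS and 124 to 129 CPM after PBS. Hnrnpa1 rose by 0.68 (edgeR adjusted p = 0.0135) and lost the call without any of 3 libraries (adjusted p up to 0.0664). Hnrnph1 fell by 0.60 (SE 0.09, edgeR adjusted p = 0.000302), at 316 to 352 CPM after LPS and 504 to 576 CPM after PBS. Hnrnpr fell by 0.38 (edgeR adjusted p = 0.0345), also lost without any of 5 libraries (adjusted p up to 0.143). In tagged microglia 0 of 15 passed with edgeR for LPS over PBS (median -0.09 against -0.01; 2 at an unadjusted p under 0.05, 0 with DESeq2) and 0 of 15 for PBS over untreated (median 0.12 against 0.03; 7 at an unadjusted p under 0.05, 2 of 11 with DESeq2, 6 without untreated replicate 1). For the difference of responses 0 of 18 passed with edgeR (median -0.07 against -0.04; 4 at an unadjusted p under 0.05, 0 of 14 with DESeq2).

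Transcripts whose splicing PTB proteins are known to regulate formed a second list of 12 genes. It includes Dlg4, the gene of the postsynaptic scaffold PSD-95, whose Ptbp-repressed exon sets whether the transcript is stable, and Pkm, whose exon choice decides the isoform of pyruvate kinase. The tables count whole genes, so exon use was not measured. Of 8 tested, 7 were lower in untreated Cx3cr1 than in cortical libraries and none higher, 87.5% against the 49.8% of all genes that passed in either direction, with a median log2 change of -2.52 against -0.48. Kif5a, a neuronal kinesin, was at 83.9 and 97.4 CPM in untreated Cx3cr1 and 215 to 4257 CPM in cortical libraries (log2 change -3.94, edgeR adjusted p = 3.9e-08). Dlg4 was at 30.0 and 83.9 CPM in untreated Cx3cr1 and 365 to 1769 CPM in cortical libraries (-4.03, edgeR adjusted p = 3.31e-07). Many genes of this list are neuronal ones, and the count of lower genes stands beside the pan-neuronal marker shares given above. Against Gfap, 7 were lower in untreated Cx3cr1, 87.5% against 44.6% of all genes (median -2.22 against -0.53), led by Gabbr1, a subunit of the GABA-B receptor, at -4.74 (edgeR adjusted p = 2.68e-08).

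Within cortex the list split. Between Gfap and neurons 3 of 8 were higher and 4 lower, 87.5% against 60.5% of all genes (median -0.995 against 0). Gabbr1 (1.48, edgeR adjusted p = 3.12e-06) was among the higher, while Kif5a (-3.53, edgeR adjusted p = 8.32e-09) was among the lower. Sv2a, a synaptic vesicle protein, came past the filter through neuronal libraries and 1 Cx3cr1 library, and is still counted in the 87.5%. It was at 3.75 and 8.57 CPM in Gfap libraries and 24.9 to 167 CPM in neurons. Between Camk2a and Gad2, 3 were higher and 1 lower, 4 of 8 against 21.2% of all genes (median 0.15 against 0.03). The count of 4 was 1 or 2 without any one of the 4 neuronal libraries. Sv2a was at 24.9 and 41.5 CPM in Camk2a libraries and 160 to 167 CPM in Gad2 libraries (-2.32, edgeR adjusted p = 5.28e-06). Gabbr1 was higher in Camk2a (0.75, edgeR adjusted p = 0.0345), a call that was lost without any of 4 libraries (adjusted p up to 0.315).

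In RNA-seq after LPS, 2 of 10 tested genes of this list rose and 1 fell, 3 of 10 against 26.4% of all genes (median 0.08 against -0.02). The actin crosslinker Flna rose by 1.06 (SE 0.13, edgeR adjusted p = 8.94e-05), at 637 to 861 CPM after LPS and 339 to 459 CPM after PBS. Pkm rose by 0.89 (SE 0.15, edgeR adjusted p = 0.0011), and Gabbr1 fell by 0.88 (SE 0.22, edgeR adjusted p = 0.0109; 0.0707 without LPS replicate 1). In tagged microglia 0 of 6 passed with edgeR for LPS over PBS (median -0.74 against -0.01), where 4 had an unadjusted p under 0.05, DESeq2 called 1, the fit with the replicate block called 3 and the fit without LPS replicate 2 called 1. For PBS over untreated 0 of 7 passed with edgeR (median 0.50 against 0.03; 1 at an unadjusted p under 0.05, 1 of 5 with DESeq2, 2 without untreated replicate 1), and for the difference of responses 0 of 10 (median 0.22 against -0.04; 2 at an unadjusted p under 0.05, 0 of 5 with DESeq2).

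The genes most like each member over the 14 tagged libraries were named by Pearson's r of log2 CPM among 5494 genes, as a description; the libraries share cell type, treatment and depth. For Ptbp1 these were Ptma (prothymosin alpha, r = 0.981), Reep4 (0.977) and Plxnb2 (plexin B2, 0.977). For Ptbp2 they were Lgr4 (an R-spondin receptor, 0.966), Pdha1 (a pyruvate dehydrogenase subunit, 0.965) and Nudt3 (0.956). For Ptbp3 they were Myh9 (non-muscle myosin heavy chain, 0.987), Rpl14 (a ribosomal protein, 0.987) and Il10rb (an interleukin-10 receptor subunit, 0.983). Lgr4, like Ptbp2, was highest in Gfap libraries, at 214 and 283 CPM, against 34.9 to 41.0 CPM in neurons and 0 to 14.99 CPM in Cx3cr1 libraries. Myh9, like Ptbp3, was at 219 to 517 CPM in Cx3cr1 libraries and at most 13.6 CPM in cortical ones.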

How the data were processed

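Each library came with 1 table of raw gene counts (whole numbers), deposited by the authors, and no normalisation had been applied. The build was mm10, and the tools named are STAR (RNA-seq) and Novoalign with cutadapt (PAPERCLIP), per the submitters' processing notes, which give no versions. Per the labels' protocols, PAPERCLIP linkers carry a 7-base random barcode; for the collapsing of duplicates, the rule that gave reads to genes and the use of strand, nothing is stated in the sources used here. The 3 genes and both gene lists were chosen with earlier results of these data known. In each comparison and list, up to 2 passing genes per direction with the smallest p were named; 1 gene that this rule picked is not reported here.

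CPM is the count divided by the library's total. Counts were tested with edgeR 4.0.16 in R 4.3.3 (quasi-likelihood test, TMM scaling, filterByExpr with a minimum count of 10, Benjamini-Hochberg over all genes tested, threshold 0.05) and, as an alternative, DESeq2 1.42.0. The untreated tagged libraries were fitted together, as were all Cx3cr1 libraries for PBS over untreated; LPS over PBS used the 6 libraries of each assay. Ratios were tested by exact permutation with scipy 1.17.1. Intervals and floors cover counting error only, at 95% confidence and 3 counts. The fits were tested on simulated counts.

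Replicate numbers in the labels were checked by correlating deviations from group means: same-numbered LPS and PBS libraries of tagged microglia gave 0.13, 0.24 and 0.188, so these numbers were taken to pair them. Replicates differed by more than sampling noise in every group (chi-square per degree of freedom 2.10 to 76.9). The knockout pairs with replicate 3 gave 75.5 and 76.9, against 6.67 for knockout replicates 1 and 2. Promoter sequences are RefSeq's, for GRCm38.p6.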

Additional observations from a re-analysis of the deposited data

How the results depend on the processing

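For the 3 genes and their ratios, 382 alternative values were computed for 30 results; 347 kept their direction and their side of the threshold, 25 kept the direction and lost the call, and 10 changed sign. Where the text gives no other value, the cause was not tested. Thinning every library to the shallowest of its fit left fewer counts, and the calls of Ptbp3 in Camk2a over Gad2 (2.62), Ptbp2 in Gfap over neurons (0.61), Ptbp2 in untreated Cx3cr1 over cortical (-1.34) and Ptbp1 in the RNA-seq LPS response (-0.27) were lost. In RNA-seq, DESeq2 gave -0.30 for Ptbp1 and -0.40 for Ptbp2, the fit with no filter -0.28 and -0.38, and scaling by totals 0.19 for Ptbp3, all without a call. With one library left out, log2 changes ranged from 1.76 to 2.70 for Ptbp3 in Camk2a over Gad2, and after LPS in RNA-seq from -0.34 to -0.24 for Ptbp1, -0.43 to -0.34 for Ptbp2 and 0.27 to 0.35 for Ptbp3. The difference of responses of Ptbp2 turned to 0.24 when thinned and ranged from -0.99 to 0.06 with one library left out. The log2 ratio of Ptbp3 to Ptbp1 between Cx3cr1 and cortex turned to 1.36 with Ptbp1 at no less than 3 counts in cortical libraries (an alternative added after seeing the data), to 0.17 with 1 added and to 0.69 with untreated libraries alone, and ranged from -0.65 to 0.37 with one library left out; that between LPS and PBS in tagged microglia moved to 0.0 with 1 added and ranged from -0.42 to 0.33. Scaling by totals moved the median log2 change of all genes to -0.21 from 0 in Gfap over neurons, where Ptbp2 was at 0.89, and to -0.13 from -0.02 in the RNA-seq LPS response. In tagged microglia, leaving out a library took Ptbp1 below the filter in 2 of 6 fits of LPS over PBS and 4 of 8 of PBS over untreated. For the lists, 956 of 1089 alternative values kept their call and direction, 91 lost the call, 42 counts moved by over 1.5 times and none changed sign.

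The RNA-seq LPS and PBS libraries were not taken as paired. Their same-number correlations were 0.114, 0.0977 and 0.192, and PBS replicate 1 with LPS replicate 2 gave 0.108. The fit with the replicate block gave -0.40 for Ptbp2 (edgeR adjusted p = 0.0503) and changed no other Ptbp call. It moved the calls over all genes from 2706 to 2770. In tagged microglia the block changed no Ptbp call and moved the calls for LPS over PBS from 201 to 423. A term for the library prefix in the submitters' names gave 317 there, with Ptbp1 at 0.68 and Ptbp3 at 0.44, and within the prefix that 2 replicates of each group share they were 0.70 and 0.43, none called.

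Calls over all genes moved by over 1.5 times in these cases. Camk2a over Gad2 gave 2001, with 1026 to 1209 without any one of the 4 neuronal libraries. Thinning gave 503 there, 2258 in place of 5702 for Gfap over neurons, 2726 in place of 4687 for untreated Cx3cr1 over cortical and 2212 in place of 4203 over Gfap. PBS over untreated gave 103, with 234 by DESeq2, 313 with no filter, 43 with a minimum of 5 CPM, 169 in a fit of all 14 tagged libraries and 3 to 495 with one library left out. LPS over PBS gave 632 with no filter, 359 in the fit of 14 and 74 to 167 with one left out. RNA-seq gave 1781 by DESeq2. The difference of responses gave 1, with 87 by DESeq2, 115 with no filter, 57 with the block, 3 when thinned and 1 to 37 with one left out.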
